A study of Homo sapiens with 4 samples.

Results

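Transcripts of 10 genes of spindle assembly, spindle orientation and cytokinesis were followed in 769-P cells, an established human renal clear cell carcinoma line: TPX2, HMMR, FAM83D, GTSE1, CKAP5, ASPM, SAPCD2, NUSAP1, PRC1 and ANLN. All 10 names matched 1 row each of the 58735 genes in every table. They were chosen by name with earlier results for doxycycline against control known, so their differences between these groups are a description and carry no test. The cells, labelled wild type, carried a stably transfected, inducible short hairpin RNA against USP35, a deubiquitylating enzyme, and were kept in puromycin. The 2 control libraries came from untreated cells, and the 2 doxycycline libraries from cells given 1 µg/ml doxycycline for 4 days. Both groups hold the hairpin construct, a single hairpin was used in the libraries analysed here, and no library with doxycycline but without the hairpin was analysed here. The labels do not say whether the replicates of a group came from separate cultures; p-values here therefore reflect only how these libraries vary, possibly for technical reasons.

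The mitotic spindle is the microtubule machine that separates chromosomes. TPX2, released from importins by Ran near chromosomes, activates Aurora A and promotes microtubule nucleation, HMMR and ASPM act at the poles, CKAP5 adds tubulin to growing ends, and FAM83D and SAPCD2 take part in positioning the spindle. NUSAP1 bundles microtubules near chromatin, PRC1 crosslinks the antiparallel microtubules of the midzone, and ANLN scaffolds the contractile ring. Many such genes are transcribed mainly in G2 and M phase, through a CHR (cell cycle homology region) bound by the MuvB complex, often beside CCAAT boxes bound by NF-Y. In bulk samples, fewer cells in mitosis and less RNA per cell cannot be told apart.

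The promoters of the genes were searched for the CHR and the CCAAT box. Many genes of G2 and M phase hold these motifs, so a choice of spindle genes by name favours finding them. No comparison with promoters of other cell cycle genes was made. Promoter sequences from RefSeq (GRCh38.p14), 250 bases before to 50 bases after the start of transcription, were matched for 8 of the 10 genes. FAM83D and TPX2 were not matched. The motifs searched on both strands were the CHR core, TTTGAA or TTCGAA, and the CCAAT box, CCAAT. A CHR core was found in 8 of 8 promoters, against 16.4% of 34943 promoters of 300 bases in the table, and a CCAAT box in 7 of 8, against 34.6%. Both were present in 7 of 8, against 6.4%. All cores found were TTTGAA. The 120 bases before the start are shown for the 8 genes, 5′ to 3′ on the gene's own strand, because they hold the cores of 7 of them; capitals mark a CHR core or a CCAAT box in either orientation. They lie at chr5:163460512-163460631 on the plus strand for HMMR, chr7:36389742-36389861 on the plus strand for ANLN, chr22:46296750-46296869 on the plus strand for GTSE1, chr15:90994536-90994655 on the minus strand for PRC1, chr9:137070558-137070677 on the minus strand for SAPCD2, chr1:197146670-197146789 on the minus strand for ASPM, chr11:46846281-46846400 on the minus strand for CKAP5, chr15:41332761-41332880 on the plus strand for NUSAP1.

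HMMR: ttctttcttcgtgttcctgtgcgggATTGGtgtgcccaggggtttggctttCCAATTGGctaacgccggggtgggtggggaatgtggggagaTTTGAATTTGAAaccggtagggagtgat
ANLN: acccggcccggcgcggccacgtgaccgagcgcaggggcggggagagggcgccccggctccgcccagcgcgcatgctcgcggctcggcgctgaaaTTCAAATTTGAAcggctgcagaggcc
GTSE1: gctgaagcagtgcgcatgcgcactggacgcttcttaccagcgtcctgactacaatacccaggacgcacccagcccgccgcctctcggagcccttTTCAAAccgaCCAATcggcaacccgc
PRC1: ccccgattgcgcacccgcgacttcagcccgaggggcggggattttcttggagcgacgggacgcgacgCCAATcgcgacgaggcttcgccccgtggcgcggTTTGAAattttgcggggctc
SAPCD2: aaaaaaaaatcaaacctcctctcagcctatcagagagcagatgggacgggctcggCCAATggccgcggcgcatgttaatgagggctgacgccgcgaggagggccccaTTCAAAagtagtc
ASPM: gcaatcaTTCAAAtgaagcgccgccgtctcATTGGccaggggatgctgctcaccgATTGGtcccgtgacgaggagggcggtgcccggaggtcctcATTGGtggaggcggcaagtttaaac
CKAP5: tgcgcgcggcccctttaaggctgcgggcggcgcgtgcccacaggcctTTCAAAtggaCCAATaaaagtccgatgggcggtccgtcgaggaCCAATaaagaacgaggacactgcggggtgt
NUSAP1: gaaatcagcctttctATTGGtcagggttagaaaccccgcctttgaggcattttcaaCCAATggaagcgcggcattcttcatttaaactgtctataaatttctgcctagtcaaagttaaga

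In 5 of the 8 promoters (HMMR, ANLN, GTSE1, PRC1 and SAPCD2) a core lay whole within the last 40 bases before the start, which held for 1.93% of all promoters. This window was chosen after the positions were seen. The start is that of the RefSeq promoter entry, which can differ from the gene ends given below. For HMMR, GTSE1, PRC1 and NUSAP1 the whole stretch of 120 bases lies inside the gene positions given below. Distances from other possible starts were not measured. HMMR had 2 cores side by side in the same orientation, beginning 28 and 22 bases before the start, and ANLN had 2 side by side in opposite orientations, beginning 26 and 20 bases before it. ANLN was the gene with no CCAAT box. In HMMR a pair of CCAAT boxes on opposite strands overlapped, beginning 69 and 66 bases before the start. The core of ASPM began 113 bases and the upstream core of CKAP5 73 bases before the start. In NUSAP1 the core lay after the start, outside the stretch shown. A match is a string of letters and not a measured binding site. CKAP5, the gene whose libraries overlapped between groups in the values that follow, also held both motifs. Whether the motifs bear on the levels of these genes was not tested.

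**Figure D1:**
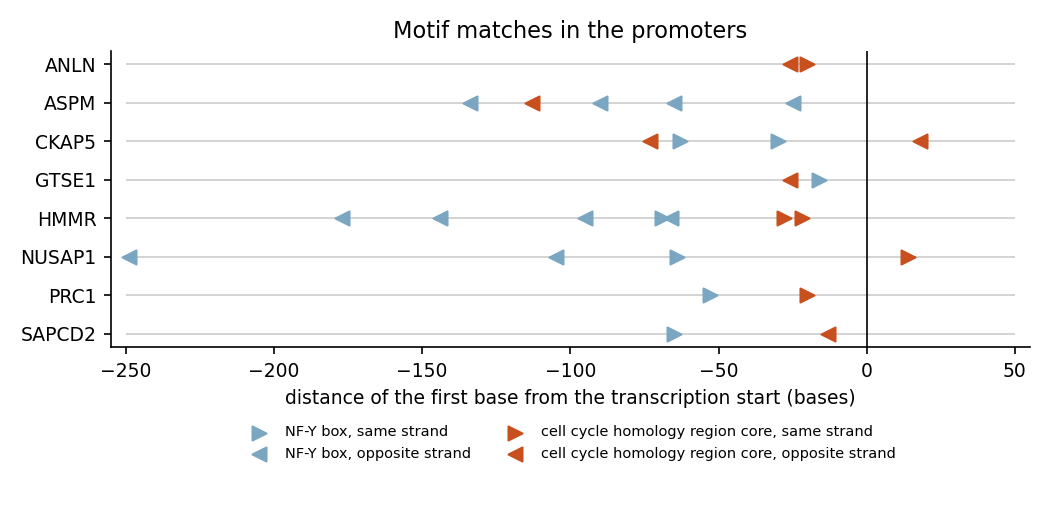
Positions of the CHR core (orange) and the CCAAT box that NF-Y binds (blue) in 8 promoters, in bases from the RefSeq transcription start. Arrowheads give the strand. Cores of ANLN, GTSE1, HMMR, PRC1 and SAPCD2 lie within 40 bases before the start, that of ASPM farther upstream, that of NUSAP1 after it, and those of CKAP5 on both sides.

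Depth was between 16319640 and 18764546 recovered reads per library. Expression is given as FPKM, which divides the fragments of a gene by its length in kilobases and by the size of the library. For a gene of 2 kb, 3 reads, the limit that a count of 0 allows, correspond to 0.0798 to 0.0945 FPKM. USP35, the target of the hairpin, stood at 3.31 and 4.19 FPKM in control replicates 1 and 2. In doxycycline replicates 1 and 2 it stood at 2.11 and 2.54 FPKM, a ratio of group means of 0.620. Its log2 difference, taken on log2(FPKM + 1) here and for the genes below, was -0.51 (limma adjusted p = 0.256). Doxycycline replicate 2 had 14.6% of reads on mitochondrially encoded genes, against 7.44% to 8.5% in the other libraries. The 2 doxycycline libraries differed by at least 1 on the log2(FPKM + 1) scale for 814 of 12029 genes, against 135 between the controls. The renal lineage factors PAX8, PAX2 and LHX1 were detected in every library, with LHX1 at 25.6 and 27.3 FPKM in control against 6.48 and 5.26 FPKM in doxycycline libraries, PAX2 at 4.78 and 5.31 against 5.94 and 6.15 FPKM and PAX8 at 48.6 and 53.9 against 49.4 and 38.5 FPKM. Of 4 clear cell carcinoma markers only VIM passed 1 FPKM, with CA9 at 0.0377 FPKM or below in each library. None of the 14 fibroblast, endothelial and leukocyte markers reached a mean of 1 FPKM; the fibroblast markers summed to 0.804 and 0.726 FPKM in control and 0.225 and 0.202 FPKM in doxycycline libraries, and CDH5, KDR, PECAM1 and CD3E were at 0 in every library.

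For 9 of the 10 genes, all except CKAP5, each doxycycline library lay below each control library, with ratios of group means from 0.196 for SAPCD2 to 0.448 for HMMR. CKAP5 had a ratio of 0.918 and its libraries overlapped. PRC1 did not reach the mean of 1 FPKM set for the fit across genes, which kept 9 of the 10 genes and 12029 genes in all. Of those 9, 8 lay below both controls in both doxycycline libraries, where 28.9% of all genes did, and 8 had a mean at least 2-fold lower, where 6.07% did. At a limma adjusted p under 0.05, 0 of the 9 passed, with 0% of all genes. At an unadjusted p under 0.05, 8 were lower, with 11.9% of all genes. Limma-voom on recovered reads called 0 of the 9 with library totals and 4 with median-of-ratios library sizes, all lower, where 0% and 0.865% of all genes were called lower. Without doxycycline replicate 1, and likewise without doxycycline replicate 2, the limma fit called 8 of the 9 lower, where it called 19.9% and 8.39% of all genes lower, with the lone doxycycline library assumed to vary like the controls. These counts restate the differences known when the genes were chosen. The median log2 difference on the log2(FPKM + 1) scale, which understates changes of low genes, was -1.32 over the 9 genes and -0.03 over all genes kept. It was -1.61 for doxycycline replicate 1 and -1.12 for doxycycline replicate 2, each against the mean of the controls.

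**Figure D2:**
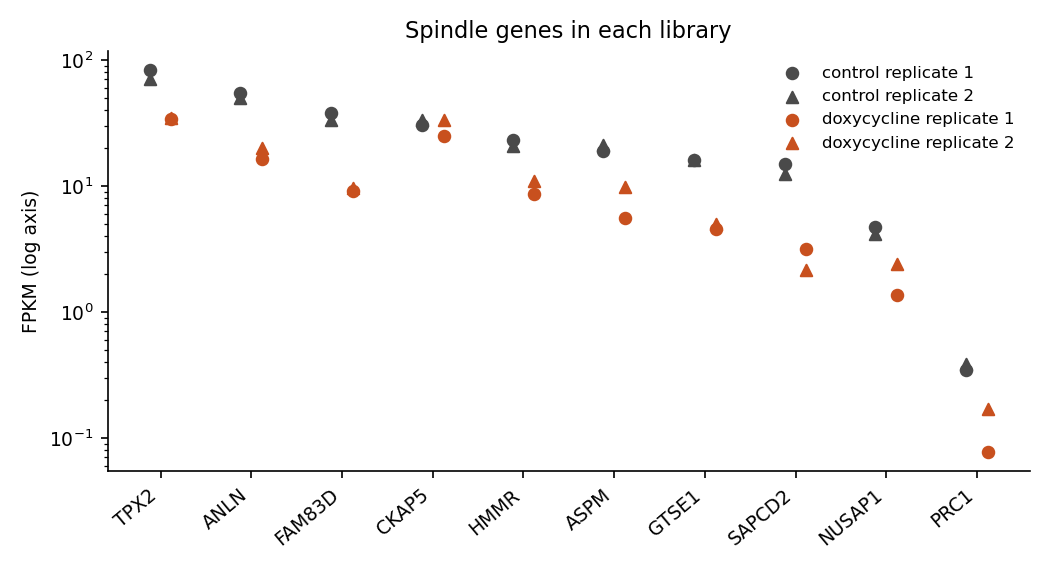
FPKM (log axis) of the 10 genes in each of the 4 libraries, ordered by the control mean; grey is control, orange doxycycline, circles replicate 1 and triangles replicate 2. Doxycycline points lie below both controls for 9 genes; for CKAP5 replicate 1 lies below both and replicate 2 between them.

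Among the spindle assembly factors, TPX2 (chromosome 20, 31739271 to 31801805, plus strand, in GRCh38 as for all genes here) was the most abundant of the 10 genes. The controls had 83.1 and 70.8 FPKM, and the doxycycline libraries 34.0 and 34.7 FPKM. The means were 77.0 ± 8.71 and 34.4 ± 0.48 FPKM (SD, n = 2 each), a ratio of 0.447 and a log2 difference of -1.14 with a standard error of 0.21. The doxycycline libraries were nearly equal for TPX2, and both were less than any control.

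HMMR, the spindle pole protein also known as RHAMM (chromosome 5, 163460203 to 163491945, plus strand), had 22.96 and 20.6 FPKM in the controls against 8.54 and 10.96 FPKM under doxycycline. The means were 21.8 ± 1.70 and 9.75 ± 1.71 FPKM (SD, n = 2 each), a log2 difference of -1.09 with a standard error of 0.21. The ratio of 0.448 was next to that of TPX2, and the ranges of the 2 genes' library ratios overlapped. HMMR-AS1, an antisense gene that shares 113 of HMMR's exonic bases, was listed at 0 in all 4 libraries.

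GTSE1, which follows growing microtubule ends through EB1, the product of MAPRE1, lies on chromosome 22 from 46296741 to 46330810 on the plus strand. Its values were 15.9 and 16.2 FPKM in the controls against 4.58 and 4.94 FPKM under doxycycline. Replicates lay close together in both groups, with means of 16.04 ± 0.15 and 4.76 ± 0.26 FPKM (SD, n = 2 each). The ratio was 0.297 and the log2 difference -1.57 with a standard error of 0.17.

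CKAP5, the microtubule polymerase ch-TOG (chromosome 11, 46743048 to 46846308, minus strand), had overlapping groups, unlike the other 9. Control replicates 1 and 2 had 30.3 and 33.5 FPKM, doxycycline replicate 1 had 25.0 FPKM and doxycycline replicate 2 had 33.5 FPKM, resting on 4015 to 5238 reads per library. Doxycycline replicate 1 was thus the lowest library and replicate 2 was level with control replicate 2. Its log2 difference of -0.13 (standard error 0.23) changed sign without doxycycline replicate 1 (0.071) and with mitochondrial genes removed before scaling (0.005). The ratios of single doxycycline to single control libraries spanned 0.746 to 1.11 for CKAP5 and did not overlap the range of 0.372 to 0.533 for HMMR, its neighbour in the order.

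ASPM, the spindle pole protein whose loss causes microcephaly (chromosome 1, 197084128 to 197146694, minus strand), had 18.8 and 21.2 FPKM in the controls. With doxycycline it had 5.51 FPKM in replicate 1 and 9.83 FPKM in replicate 2, so the doxycycline libraries differed 1.78-fold from each other. The counting intervals of those values (exact Poisson, 95%) were 5.20 to 5.84 and 9.40 to 10.3 FPKM, which cover counting error only. Both stayed below the controls, with means of 19.96 ± 1.71 and 7.67 ± 3.05 FPKM (SD, n = 2 each), a ratio of 0.384 and a log2 difference of -1.32 with a standard error of 0.28.

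Of the positioning factors, FAM83D, which brings casein kinase 1 alpha to the spindle, lies on chromosome 20 from 38926312 to 38953106 on the plus strand. It went from 37.6 and 33.5 FPKM in the controls to 9.05 and 9.60 FPKM with doxycycline. The means were 35.5 ± 2.93 and 9.32 ± 0.39 FPKM (SD, n = 2 each), a ratio of 0.263 and a log2 difference of -1.82 with a standard error of 0.19. In the controls its range overlapped that of CKAP5, and with doxycycline both libraries lay well below those of CKAP5.

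SAPCD2, a regulator of spindle orientation that works through GPSM2 (LGN), lies on chromosome 9 from 137062124 to 137070588 on the minus strand and had the lowest ratio. Control libraries had 14.8 and 12.5 FPKM, and doxycycline replicates 1 and 2 had 3.17 and 2.16 FPKM, from 229 and 152 reads. The means were 13.6 ± 1.63 and 2.66 ± 0.71 FPKM (SD, n = 2 each), a ratio of 0.196 and a log2 difference of -2.01 with a standard error of 0.21. SAPCD2 was the gene of the 10 for which doxycycline replicate 2 was below replicate 1. Library ratios of SAPCD2 (0.146 to 0.254) overlapped those of FAM83D (0.241 to 0.287). A pair of antisense genes overlapping 22.9% of its exonic bases were listed at 0 in all 4 libraries.

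ANLN, or anillin (chromosome 7, 36389806 to 36453791, plus strand), had 54.8 and 49.4 FPKM in the controls against 16.3 and 20.1 FPKM under doxycycline. The means were 52.1 ± 3.77 and 18.2 ± 2.71 FPKM (SD, n = 2 each), a ratio of 0.349 and a log2 difference of -1.48 with a standard error of 0.21. Both doxycycline libraries lay far below both controls, and in all 4 libraries ANLN stood second to TPX2 or, in doxycycline, also below CKAP5. KIAA0895 on the other strand shares 78 of ANLN's exonic bases and was at 2.17 and 2.38 FPKM in the controls against 2.88 and 4.47 FPKM under doxycycline.

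NUSAP1 and PRC1 had low values, and for both most exonic bases also belong to another annotated gene on the same strand. NUSAP1 (chromosome 15, 41332694 to 41381050, plus strand) had 4.71 and 4.17 FPKM in the controls against 1.35 and 2.39 FPKM under doxycycline, from 215, 209, 73 and 126 reads. The ratio was 0.421 and the log2 difference -0.95 with a standard error of 0.24. Doxycycline replicate 2 was 1.77-fold above replicate 1, and both were below the controls. Of its 2875 exonic bases, 1787 (62.2%) are shared with AC087721.2, which was listed at 0 in every library. Over the 1088 bases that are not shared, the same reads would give 12.5 and 11.03 FPKM in the controls against 3.57 and 6.32 FPKM under doxycycline.

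PRC1 (chromosome 15, 90966038 to 90995629, minus strand) rested on 30, 37, 8 and 17 reads in the 4 libraries. Its values were 0.342 and 0.385 FPKM in the controls against 0.077 and 0.168 FPKM under doxycycline, a ratio of 0.337. Counting intervals (exact Poisson, 95%) ran from 0.0333 to 0.152 FPKM in doxycycline replicate 1, from 0.0979 to 0.269 FPKM in replicate 2 and from 0.231 to 0.489 FPKM in control replicate 1, so the intervals of replicate 2 and control replicate 1 overlapped. AC068831.7, a protein-coding gene on the same strand, shares 57.6% of PRC1's 5525 exonic bases and had 1.10 and 1.07 FPKM in the controls against 0.633 and 0.565 FPKM under doxycycline. How reads in shared exons were assigned is not given in the sources used here, and the part of these overlaps in the low values of PRC1 and NUSAP1 was not tested. FAM83D, GTSE1, TPX2, ASPM and CKAP5 share no exonic base with another gene.

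**Figure D3:**
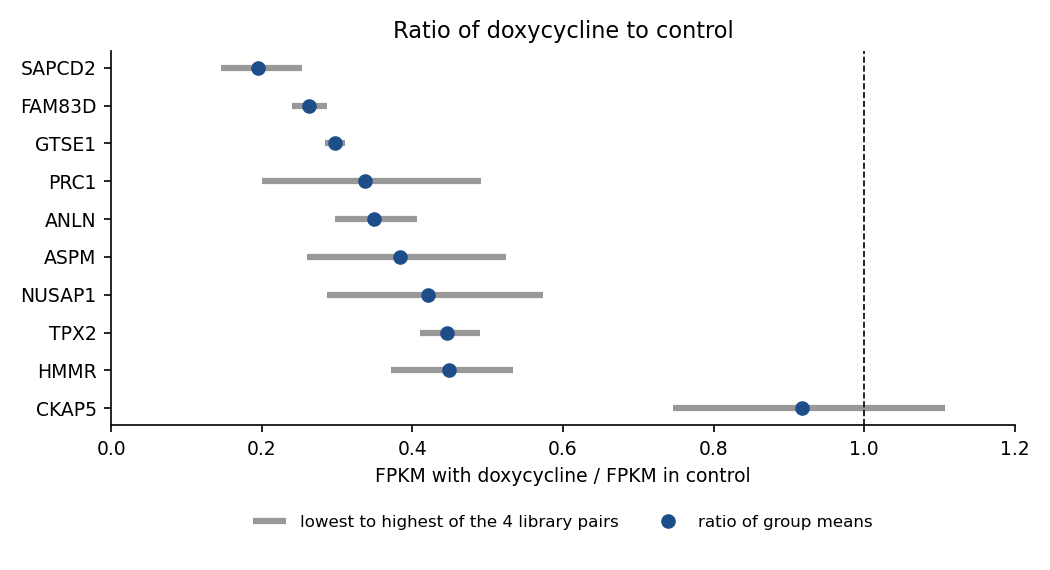
Ratio of FPKM with doxycycline to FPKM in control for the 10 genes; points are ratios of group means and bars span the 4 ratios of single libraries. Bars overlap between neighbours from SAPCD2 to HMMR, and only the bar of CKAP5 crosses 1.

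In the order of control levels, TPX2, ANLN, FAM83D, CKAP5, HMMR, ASPM, GTSE1, SAPCD2, NUSAP1 and PRC1, the ranges of neighbouring genes overlapped for FAM83D with CKAP5 and for HMMR with ASPM. In the order of ratios the library ratios of every neighbouring pair overlapped except HMMR with CKAP5. Genes farther apart in that order could be apart: the range of SAPCD2 (0.146 to 0.254) lay below that of ANLN (0.297 to 0.406), which in turn lay below that of TPX2 (0.410 to 0.490). Doxycycline replicate 1 was lower than replicate 2 for 9 genes, with SAPCD2 the exception. MKI67, a marker of cycling cells, parted in the same direction, at 26.1 and 39.1 FPKM in the controls, then 8.13 and 14.5 FPKM in doxycycline replicates 1 and 2 (limma adjusted p = 0.111). CDK1, the mitotic kinase, was at 34.2 and 26.7 FPKM and at 15.5 and 15.2 FPKM (adjusted p = 0.114), and PCNA, the replication clamp, at 211 and 166 FPKM and at 92.7 and 85.0 FPKM (adjusted p = 0.115). The part of a change in the number of cycling cells in the members' differences was not tested.

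Relative to textbook partners within the same library, the genes did not all keep their ratios. Of 13 pairs, the 2 groups' ratios did not overlap for 11, with 9 lower and 2 higher with doxycycline. Of single genes kept, 53.2% had groups that did not overlap, so little is read from this count. TPX2 per AURKA, the kinase it activates, was 2.05 and 2.13 in the controls and 4.55 and 3.28 with doxycycline. AURKA itself had 40.5 and 33.2 FPKM in untreated cells against 7.49 and 10.6 FPKM in treated ones (limma adjusted p = 0.0573). TPX2 per HMMR was 3.62 and 3.45 in the controls and 3.99 and 3.17 with doxycycline, which overlapped.

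FAM83D per HMMR, which binds it at the spindle, was 1.64 and 1.63 in the controls and 1.06 and 0.876 with doxycycline. FAM83D per CSNK1A1, its kinase partner, was 1.67 and 1.58 against 0.435 and 0.504, with CSNK1A1 at 21.8 ± 0.87 and 19.9 ± 1.24 FPKM (SD, n = 2 each, limma adjusted p = 0.745). SAPCD2 per GPSM2 was 2.87 and 2.17 against 1.11 and 0.542. CKAP5 per TACC3, its adaptor at the spindle, went the other way, with 1.12 and 1.52 in the controls and 3.23 and 5.67 with doxycycline. TACC3 itself was at 27.1 and 22.1 FPKM and at 7.75 and 5.91 FPKM (limma adjusted p = 0.0573).

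ANLN per RACGAP1, a centralspindlin subunit, was 1.67 and 1.74 in the controls and 1.08 and 1.15 with doxycycline, and ANLN per ECT2, the activator of RhoA, was 1.26 and 1.25 against 0.851 and 0.763. GTSE1 per MAPRE1 was 0.168 and 0.192 against 0.0571 and 0.0695, and GTSE1 per CLTC, the clathrin heavy chain, 0.197 and 0.188 against 0.0641 and 0.0394. CKAP5 per SLAIN2, which recruits it to microtubule ends, was 2.81 and 3.52 against 2.06 and 2.59. PRC1 per KIF4A, a kinesin of the midzone, was 0.0143 and 0.0190 against 0.00894 and 0.0208. These values overlapped and rest on the few reads of PRC1. NUSAP1 per KPNB1, importin beta, was 0.0672 and 0.0582 against 0.0247 and 0.0410. These ratios share the libraries and the contrast that the genes were chosen on and are given as values.

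**Figure D4:**
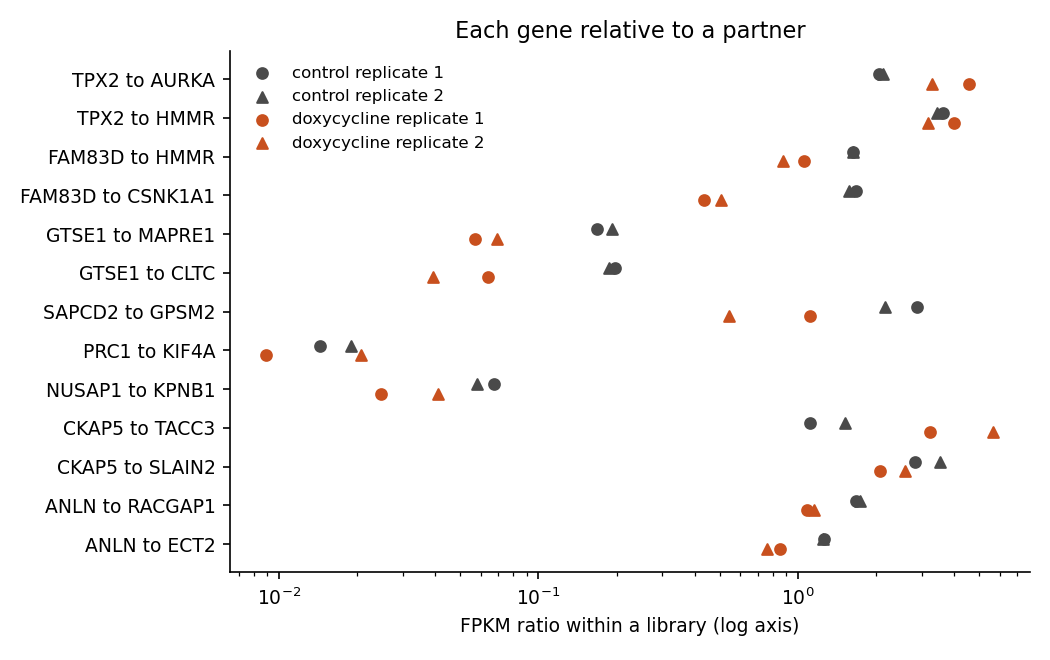
FPKM ratio (log axis) of a spindle gene to a partner within each of the 4 libraries; grey is control, orange doxycycline, circles replicate 1 and triangles replicate 2. TPX2 to AURKA and CKAP5 to TACC3 were higher with doxycycline, TPX2 to HMMR and PRC1 to KIF4A overlapped, and the other 9 ratios were lower.

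The wider spindle machinery was read from 8 lists of 116 other genes, of which 110 were kept. These lists were also chosen with earlier results of these data known. Over all 4 libraries, 0 of the 12029 genes kept had a limma adjusted p under 0.05. The lowest limma adjusted p of any gene kept was 0.0573, the value of AURKA and TACC3 above. At a limma adjusted p under 0.05, 0 of 110 passed in either direction, but 59 did without doxycycline replicate 1 and 43 without doxycycline replicate 2, where 32.8% and 13.3% of all genes passed. The fits without a doxycycline library assumed that the lone doxycycline library varied like the controls, so nothing is concluded from their counts. Over all 4 libraries, at an unadjusted p under 0.05, 51 were lower and 4 higher, where 11.9% of all genes were lower and 6.47% higher. Limma-voom on recovered reads called 0 with library totals and 6 (5 lower, 1 higher) with median-of-ratios library sizes, where it called 0% and 1.01% of all genes. Both doxycycline libraries lay below both controls for 72 and above both for 15, as they did for 28.9% and 24.3% of all genes kept. The median log2 difference was -0.47, against -0.03 over all genes kept.

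Besides partners, the genes named for each list are the 2 with the lowest p and the most abundant, so they need not be typical of it. Lists closest to the members in median were those of the midzone, of the tubulins and of Ran and Aurora A. Of 12 midzone and cytokinesis genes kept, 0 passed, 10 lay below both controls (28.9% of all genes did) and the median was -0.95. KIF4A was at 22.1 ± 2.59 and 8.35 ± 0.38 FPKM and KIF20A, another mitotic kinesin, at 23.4 ± 0.34 and 8.23 ± 2.27 FPKM (SD, n = 2 each, limma adjusted p = 0.0578 and 0.0682). MYH9, the non-muscle myosin heavy chain of the contractile ring, was the most abundant of the list, at 313.9 and 349.8 FPKM in the controls against 356.7 and 202.4 FPKM under doxycycline. Of 11 genes of the Ran pathway and Aurora A, 0 passed and 10 lay below both controls (28.9% of all genes did), with a median of -0.92. KPNA2, importin alpha, which holds TPX2 inactive away from chromosomes, was its most abundant gene, at 145 ± 12.4 and 76.2 ± 6.20 FPKM (SD, n = 2 each, limma adjusted p = 0.130).

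Of 8 alpha and beta tubulin genes kept, 0 passed, 6 lay below both controls and 1 above both (28.9% and 24.3% of all genes), with a median of -0.93. TUBA1A was at 11.6 and 12.7 FPKM in the controls against 67.0 and 55.7 FPKM under doxycycline (limma adjusted p = 0.0573), while TUBA4A was at 11.04 ± 1.10 and 4.87 ± 0.02 FPKM and TUBB, the most abundant, at 412 ± 25.9 and 262 ± 23.1 FPKM (SD, n = 2 each, adjusted p = 0.0696 and 0.245). Within the alpha and within the beta family, tubulin genes are alike in coding sequence, so reads could be split between them. Their single values are therefore uncertain.

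Lists of nucleation, poles, plus ends and orientation had smaller medians. For 18 nucleation genes the median was -0.40 and 0 passed, with the augmin subunits HAUS2 at 11.2 ± 0.92 and 6.06 ± 0.27 FPKM and HAUS4 at 4.86 ± 0.19 and 2.65 ± 0.16 FPKM, and gamma-tubulin (TUBG1) at 47.4 ± 0.85 and 35.4 ± 2.56 FPKM (SD, n = 2 each). For 17 pole and centrosome genes the median was -0.56 and 0 passed, with SPAG5 (astrin) at 16.2 ± 0.99 and 6.85 ± 0.73 FPKM, PLK4, the centriole duplication kinase, at 6.95 ± 0.33 and 2.93 ± 0.37 FPKM, and CAMSAP2, a minus-end binder, at 14.3 ± 0.10 and 16.1 ± 0.46 FPKM. For 13 plus-end genes the median was -0.13 and 0 passed, with 7 below and 5 above both controls (28.9% and 24.3% of all genes). CKAP2L was at 5.17 ± 0.45 and 2.32 ± 0.17 FPKM, TACC1 at 1.82 ± 0.07 and 0.77 ± 0.04 FPKM and MAPRE1 at 89.6 ± 7.82 and 75.6 ± 6.38 FPKM (SD, n = 2 each).

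Among 17 orientation and cortical dynein genes, the pathway of SAPCD2 and FAM83D, 0 passed and the median was -0.12. In this list 8 lay below both controls and 3 above both (28.9% and 24.3% of all genes), and 6 overlapped. NDE1, a dynein regulator, was at 5.30 ± 0.22 and 2.58 ± 0.38 FPKM, DLG1, a cortical scaffold, at 13.1 ± 0.31 and 23.9 ± 3.83 FPKM, and PARD3, a polarity protein, at 57.6 ± 1.04 and 56.7 ± 6.76 FPKM (SD, n = 2 each, limma adjusted p = 0.107, 0.135 and 0.957). GPSM2 was at 5.15 and 5.74 FPKM in the controls against 2.84 and 3.98 FPKM under doxycycline (limma adjusted p = 0.236). The log2 differences of these 17 genes ran from -0.82 to 0.81, beside -2.01 for SAPCD2 and -1.82 for FAM83D, which were chosen with theirs known.

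Of 14 regulators of late cell cycle transcription kept, 0 passed, 9 lay below both controls and 3 above both (28.9% and 24.3% of all genes), and the median was -0.25. MYBL2 (B-MYB), which joins MuvB at the CHR, was at 96.5 and 88.3 FPKM in the controls against 25.3 and 15.95 FPKM under doxycycline, and FOXM1, which follows it there, at 25.4 and 28.7 FPKM and at 9.66 and 8.25 FPKM (limma adjusted p = 0.0573 for both). Both doxycycline libraries were below both controls for these genes. Whether their levels bear on those of the spindle genes was not tested.

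**Figure D5:**
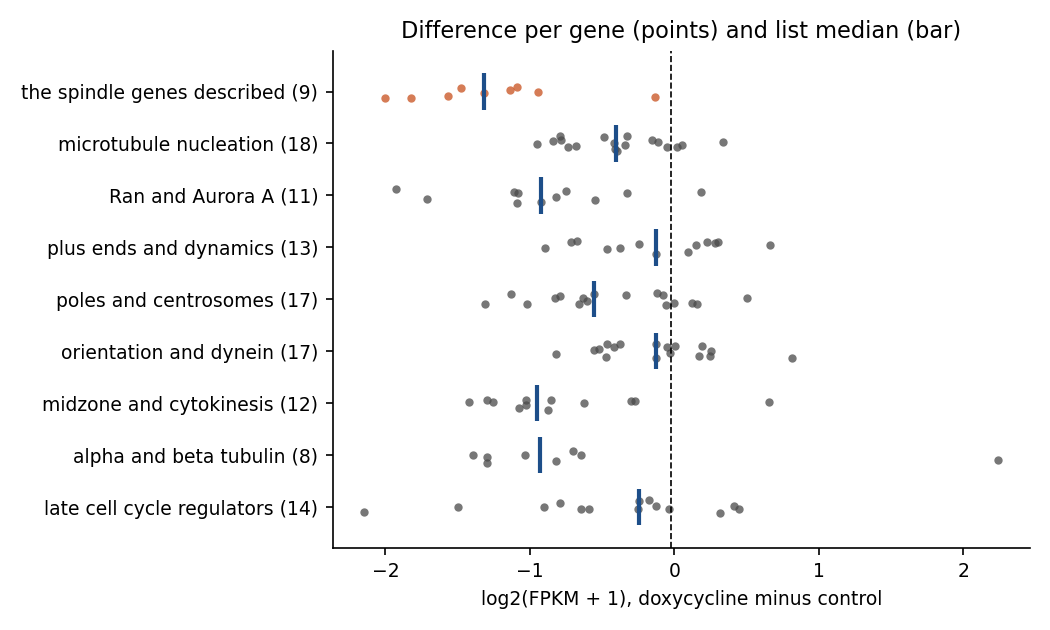
Difference between doxycycline and control on the log2(FPKM + 1) scale for each gene kept (points), with list medians (blue bars) and the median of all genes kept, -0.03 (dashed line); the number of genes kept stands in parentheses. The median of the spindle genes described is -1.32, and those of the 8 lists lie between -0.95 and -0.12.

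The genes with the most similar 4-library profile were found by the root mean square distance of centred log2(FPKM + 1) values from the median profile of the 9 genes kept, over 6924 candidates with a mean of at least 5 FPKM. They were SEMA6B, HACD2, PRR11, PHF19 and DEPDC1B, at distances of 0.037, 0.057, 0.064, 0.071 and 0.072. SEMA6B, a semaphorin, was at 9.46 and 9.70 FPKM in the controls against 2.76 and 3.74 FPKM under doxycycline. PRR11 was at 22.2 and 22.6 FPKM and at 8.03 and 8.51 FPKM. Of the spindle genes, ANLN was nearest to the median profile at 0.078 and CKAP5 farthest at 0.615, with PRC1, whose values are low on this scale, at 0.538. The likeness was computed over 4 libraries only, the same ones on which the spindle genes were chosen.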

How the data were processed

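Total RNA of 4 libraries (2 groups of 2) was sequenced by the authors. Each deposited table holds FPKM per gene, per the file headers. The submitters' processing notes list featureCounts 1.5.0-p3, limma and HISAT2 2.0.5 without saying what each did; the build, strand setting, filters and library size used are not stated in the labels or headers. All 58735 gene IDs and positions matched those of GENCODE 29 (GRCh38), from which exon overlaps were taken. FPKM multiplied by gene length came in whole multiples of the worth of 1 read in each library, for 100% of genes (tolerance 0.02 reads), which gave the reads per gene. The implied library size was 97.2% to 107.5% of the recovered totals.

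Groups and replicate numbers came from the labels. The 12029 genes averaging 1 FPKM or more were tested with limma-trend (limma 3.58.1, R 4.3.3), two-sided, on log2(FPKM + 1), with Benjamini-Hochberg adjustment and a threshold of 0.05. The steps were tested on simulated data, with the same spread set for all 4 libraries in the test of the fit. The real doxycycline libraries differed more from each other than the controls did, which that test does not cover. Promoters came from RefSeq; protein sequences were not used here. Tables were made with Python 3.11.15, pandas 2.3.3 and numpy 2.4.6.

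The genes and lists were chosen with earlier results of these data known. Named besides the members were USP35, MKI67, PCNA, CDK1, the partners, the 2 genes with the lowest p and the most abundant gene of each list, and the 5 nearest profiles. Alternatives were a pseudocount of 0.1, other filters, scalings and tests, the replicate number as a block, and leaving out each library.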

Additional observations from a re-analysis of the deposited data

How the results depend on the processing

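The 12 alternatives left the median log2 difference of the spindle genes negative, from -1.61 without doxycycline replicate 2 to -1.12 without doxycycline replicate 1; it was -1.40 without control replicate 1 and -1.25 without control replicate 2. Each gene but CKAP5 had a negative difference in every alternative that tested it. For CKAP5 the sign turned without mitochondrial genes (0.005) and without doxycycline replicate 1 (0.071); leaving out 1 library at a time its values ran from -0.336 to 0.071. The median of the 110 pathway genes was -0.378 under quantile normalization and -0.341 without mitochondrial genes, which moved the median of all genes from -0.026 to 0.095.

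The number of genes called moved most. It was 0 of 12029 over all 4 libraries, with 0 of 110 pathway genes. When only genes averaging 5 FPKM or more were tested, it was 261 of 6932 (3.77%), with 15 of 80 pathway genes. Under voom scaled by median of ratios it was 121 of 12029 (1.01%), with 6 of 110 pathway genes. Leaving out 1 library gave from 0 (either control) to 3942 genes (doxycycline replicate 1), with 1605 without doxycycline replicate 2; for pathway genes 0 to 59, with 43. In the fits without a doxycycline library, the lone doxycycline library was assumed to vary like the 2 controls. The controls differed by at least 1 on the log2(FPKM + 1) scale for 135 genes, against 814 between the doxycycline libraries. The counts of those fits depend on this assumption and are not read as evidence of change. What moved the other counts was not tested. The labels' replicate numbers do not say what is shared. With the replicate block 784 of 12029 genes (6.52%) and 26 of 110 pathway genes were called. Deviations of same-numbered libraries correlated at 0.207 over 12029 genes. The pseudocount of 0.1, no filter, quantile normalization, leaving out mitochondrial genes and voom with library totals gave 0 calls. Of the spindle genes, 7 of 8 were called lower at 5 FPKM or more (3.16% of all genes were) and 8 of 9 with the block (4.84%). PRC1 was tested without the filter only, and rests on 8 to 37 reads per library.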
